A study of Mus musculus with 8 samples.

Results

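Immediate early genes were examined in the RNA of whole mouse aortas. The 10 genes were Fos, Fosb, Jun, Junb, Egr1, Atf3, Ier2, Nr4a1, Dusp1 and Zfp36. Each was found by its symbol in the gene table, and where several rows carried the symbol the row with the most reads was used, which gave 10 of the 48607 loci of the table. All 10 passed the filter on low values (at least 1 FPKM in at least 3 libraries), as did 20506 loci in all. FPKM is a fragment count divided by library size and by a length, and it is used here to compare libraries. The length used for each assembled locus is not given in the sources used here, which limits comparison between genes.

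Immediate early genes are transcribed within minutes of a stimulus, without new protein synthesis, because the factors that switch them on (SRF with its partners at serum response elements, and CREB or ATF proteins at cAMP response elements) are already bound or ready in the resting cell. Their messages are short-lived, and many encode transcription factors: FOS and JUN proteins pair to form AP-1, EGR1 is a zinc finger factor, and NR4A1 is an orphan nuclear receptor. Others end the response: DUSP1 removes phosphate from MAP kinases, and ZFP36 (tristetraprolin) binds AU-rich elements and speeds the decay of cytokine messages. In the vessel wall these genes are known to respond to growth factors, stretch, disturbed flow, cytokines and oxidized lipids.

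Libraries were made from mice lacking ApoE, which develop atherosclerosis, and from mice lacking both ApoE and NPRC, the natriuretic peptide clearance receptor encoded by Npr3. All were on Western diet, and the NPRC allele was a frameshift made with CRISPR in the first exon, present in every cell type. By title there were 5 ApoE-/- and 3 NPRC-/-ApoE-/- libraries. The genotype entry named the other genotype for 4 of the 8: ApoE-/- 4 and 5 were entered as Nprc-/-Apoe-/-, and NPRC-/-ApoE-/- 1 and 2 as Apoe-/-. The groups below are those of the title unless stated otherwise, and every comparison was repeated by genotype entry. Aortas for RNA-seq came from 5 mice of each genotype, littermates after a cross of ApoE-/- with NPRC-/- mice, and 8 libraries were analysed here. The ApoE-/- mice bought for the study were male, and the age and sex of the sequenced littermates are not given in the sources used here. The labels tie no library to an animal, so the p-values measure the spread between libraries.

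Npr3 itself was at 1.69, 0.93, 0.62, 1.01 and 1.67 FPKM in ApoE-/- 1 to 5 and at 1.18, 1.39 and 1.13 FPKM in NPRC-/-ApoE-/- 1 to 3. Its level therefore did not separate the titles or the genotype entries. Total counts were 62969165 to 86693276 per library. The aorta's own cells were present in every library, with summed FPKM of 6 smooth muscle markers of 1294.7 to 2879.63 and of 6 endothelial markers of 77.54 to 87.39.

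The promoters of the members are shown because the cAMP response element, a binding sequence of CREB and ATF factors, is an element that several of them share. Promoter sequences of 8 of the 10 members matched in RefSeq (GRCm38.p6). Within 250 bases before the start site, the half-site TGACG, searched on both strands, was present in 6 of the 8 (Fos, Fosb, Junb, Atf3, Nr4a1 and Dusp1) and in 17.8% of all 32851 promoters. The full element TGACGTCA, which holds a pair of overlapping half-sites, was found in Dusp1 alone of the 8 and in 1.5% of all promoters. The last 150 bases before the start site follow, 5′ to 3′ on the strand of the gene, with half-sites, full elements and CArG boxes (the SRF sequence) in capitals:
Fos (chr12:85473740-85473889, plus strand): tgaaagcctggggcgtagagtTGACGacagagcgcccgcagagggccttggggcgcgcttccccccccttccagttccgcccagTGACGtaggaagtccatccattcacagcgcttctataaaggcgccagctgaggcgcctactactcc
Fosb (chr7:19310046-19310195, minus strand): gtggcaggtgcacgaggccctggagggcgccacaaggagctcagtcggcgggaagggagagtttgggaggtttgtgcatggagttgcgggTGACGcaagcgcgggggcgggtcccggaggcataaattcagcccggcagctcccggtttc
Junb (chr8:84978749-84978898, minus strand): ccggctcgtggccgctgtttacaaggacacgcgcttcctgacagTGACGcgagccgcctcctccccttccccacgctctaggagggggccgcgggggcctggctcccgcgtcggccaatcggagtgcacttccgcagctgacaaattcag
Atf3 (chr1:191183334-191183483, minus strand): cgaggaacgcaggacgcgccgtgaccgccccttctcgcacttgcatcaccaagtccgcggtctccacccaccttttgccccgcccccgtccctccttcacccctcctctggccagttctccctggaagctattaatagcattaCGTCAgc
Nr4a1 (chr15:101266696-101266845, plus strand): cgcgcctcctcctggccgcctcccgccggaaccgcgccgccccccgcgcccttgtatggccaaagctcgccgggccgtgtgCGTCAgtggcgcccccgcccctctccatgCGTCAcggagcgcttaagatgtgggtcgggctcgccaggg
Dusp1 (chr17:26508473-26508622, minus strand): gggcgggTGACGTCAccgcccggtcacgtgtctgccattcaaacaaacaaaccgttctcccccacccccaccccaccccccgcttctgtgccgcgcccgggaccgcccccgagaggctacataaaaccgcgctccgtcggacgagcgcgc
Zfp36 (chr7:28379229-28379378, minus strand): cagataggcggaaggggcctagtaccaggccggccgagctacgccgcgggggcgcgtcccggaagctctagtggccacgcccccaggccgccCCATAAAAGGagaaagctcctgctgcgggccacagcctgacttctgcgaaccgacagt

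Zfp36 is included for its CArG box, which 1 of the 8 member promoters and 1.5% of all promoters held in this window. Sequence further upstream was not searched. In Fos the half-sites lay at -129 to -125 and at -66 to -62 from the start site, upstream of the sequence TATAAA at -33 to -28. TATAAA on the strand of the gene was found in 1 of the 8 and in 7.6% of all promoters. The EGR sequence GCGNGGGCG was found in 3 of the 8 (Fosb, Nr4a1 and Zfp36) against 4.7%, and CCAAT in 2 of the 8 (Jun and Junb) against 33.8%, both on either strand. The AP-1 sequence TGANTCA was in 0 of the 8 windows and in 6.7% of all. The start site of RefSeq lay within the assembled locus by 12600 bases in Nr4a1 and by 53656 bases in Dusp1, whose loci hold further transcripts upstream.

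Most members were short genes, and most carried AU-rich elements in the 3′ untranslated region. Their median gene length in GENCODE M21 was 4698 bases with 3 exons, against 24349 bases and 9 exons for the 11813 tested protein-coding genes, although Atf3 (47744 bases) and Dusp1 (56539 bases) were longer than that median. The pentamer ATTTA, the core of the AU-rich element, was present in the 3′ untranslated region of 9 of 10 members, all but Ier2, and of 65.8% of the tested genes that have such a region. The heptamer TATTTAT was present in 6 of 10 (Fos, Fosb, Jun, Atf3, Dusp1 and Zfp36) against 27.8%. A site from each of 4 members is shown, on the strand of the gene with the heptamer in capitals, because these elements are what ZFP36 binds and ZFP36 carries them in its own message:
Fos (chr12:85477107-85477127, plus strand): ttcaattTATTTATtaagatg
Jun (chr4:95049083-95049103, minus strand): ttgtgcaTATTTATaatagcg
Dusp1 (chr17:26506163-26506183, minus strand): tggtcctTATTTATttaacac
Zfp36 (chr7:28376955-28376975, minus strand): acgacttTATTTATtgtatta

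The Fos site began 656 bases after the stop codon, the Jun site 1171 bases, the Dusp1 site 104 bases and the Zfp36 site 590 bases after it, counted to the first base of the heptamer.

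Among the AP-1 genes, Fos had the largest ratio of highest to lowest FPKM within the ApoE-/- title, 8.24, followed by Junb with 7.88. Fos (chr12:85473890-85477273) was at 15.33, 80.34, 104.91, 41.86 and 12.73 FPKM in ApoE-/- 1 to 5 and at 12.77, 11.9 and 13.08 FPKM in NPRC-/-ApoE-/- 1 to 3. The high libraries were ApoE-/- 2, 3 and 4, while ApoE-/- 1 lay just above the NPRC-/-ApoE-/- libraries and ApoE-/- 5 among them. The mean was 51.03 ± 40.58 FPKM (SD, n = 5) against 12.58 ± 0.61 FPKM (SD, n = 3), and the log2 fold change of NPRC-/-ApoE-/- against ApoE-/- was -2.03 with a standard error of 0.73 (edgeR quasi-likelihood test, adjusted p = 0.31). By an exact two-sided permutation test of the libraries p was 0.107, where 5 against 3 libraries allow no p below 0.0357.

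Fosb (chr7:19302696-19310046), the FOS relative that forms AP-1 in the same way, was at 2.68, 9.26, 13.22, 13.31 and 2.96 FPKM in ApoE-/- 1 to 5 and at 1.94, 3.37 and 3.5 FPKM in NPRC-/-ApoE-/- 1 to 3. Libraries 2, 3 and 4 of ApoE-/- were again the high ones, and ApoE-/- 1 and 5 lay among the NPRC-/-ApoE-/- values. The log2 fold change was -1.51 with a standard error of 0.63 (adjusted p = 0.34).

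Jun (chr4:95049034-95052222), the main JUN partner of AP-1, was at 29.21, 44.05, 32.48, 34.1 and 28.52 FPKM in ApoE-/- 1 to 5 and at 21.01, 20.27 and 20.24 FPKM in NPRC-/-ApoE-/- 1 to 3. The groups did not overlap, and the libraries of each group lay closer together than for Fos. The means were 33.67 ± 6.24 FPKM (SD, n = 5) and 20.51 ± 0.44 FPKM (SD, n = 3), with a log2 fold change of -0.70 and a standard error of 0.17. Its p of 0.002535 was the smallest of the members and gave an adjusted p of 0.26 in edgeR, and its exact permutation p was 0.0357, the smallest the design allows.

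Junb (chr8:84976910-84978718), another JUN protein, was at 25.61, 86.64, 106.49, 59.9 and 13.51 FPKM in ApoE-/- 1 to 5 and at 23.9, 11.76 and 19.29 FPKM in NPRC-/-ApoE-/- 1 to 3. ApoE-/- 2, 3 and 4 were well above the other libraries, ApoE-/- 1 lay just above the NPRC-/-ApoE-/- range and ApoE-/- 5 within it. The log2 fold change was -1.68 with a standard error of 0.66 (adjusted p = 0.33).

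Atf3 (chr1:191167421-191183340), a stress-induced partner of JUN proteins, was at 4.85, 6.72, 6.3, 4.19 and 3.83 FPKM in ApoE-/- 1 to 5 and at 3.52, 3.45 and 1.74 FPKM in NPRC-/-ApoE-/- 1 to 3. The groups did not overlap, though ApoE-/- 5 and NPRC-/-ApoE-/- 1 were near each other. Its log2 fold change was -0.83 with a standard error of 0.28 (adjusted p = 0.30).

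**Figure D1:**
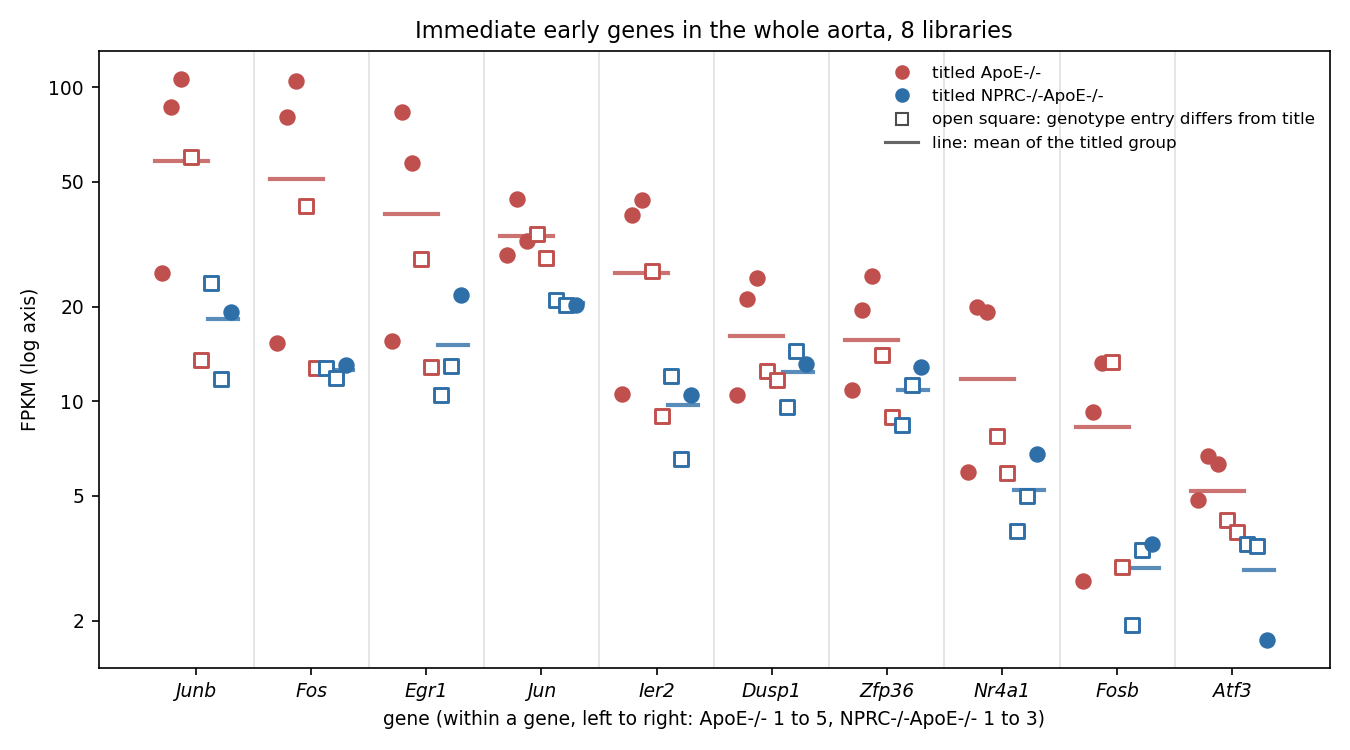
FPKM (log axis) of the 10 immediate early genes in the 8 libraries, with genes in the order of their mean over all libraries, ApoE-/- in red, NPRC-/-ApoE-/- in blue, open squares for the 4 libraries whose genotype entry differs from the title and a line at the mean of each titled group. The ApoE-/- libraries of Fos spread from 12.73 to 104.91 FPKM, while the NPRC-/-ApoE-/- libraries lie between 11.9 and 13.08.

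The other nuclear factors were also highest in ApoE-/- 2 and 3. Egr1 was at 15.59, 83.52, 57.37, 28.33 and 12.86 FPKM in ApoE-/- 1 to 5 and at 10.47, 12.94 and 21.86 FPKM in NPRC-/-ApoE-/- 1 to 3. NPRC-/-ApoE-/- 3 lay above ApoE-/- 1 and 5, and the log2 fold change was -1.37 with a standard error of 0.65 (adjusted p = 0.39). Nr4a1 (chr15:101254246-101274795) was at 5.96, 20.04, 19.26, 7.75 and 5.92 FPKM in ApoE-/- 1 to 5 and at 3.85, 5.01 and 6.78 FPKM in NPRC-/-ApoE-/- 1 to 3. Only ApoE-/- 2 and 3 stood well above the rest, and the log2 fold change was -1.16 with a standard error of 0.51 (adjusted p = 0.37). Ier2 (chr8:84661331-84662852), a small nuclear protein of the early response, was at 10.53, 39.29, 43.76, 25.92 and 9.01 FPKM in ApoE-/- 1 to 5 and at 12.07, 6.57 and 10.46 FPKM in NPRC-/-ApoE-/- 1 to 3. ApoE-/- 2, 3 and 4 were the high libraries, with a log2 fold change of -1.41 and a standard error of 0.58 (adjusted p = 0.34).

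The pair of genes that end the response differed least between the titles. Dusp1 was at 10.48, 21.21, 24.77, 12.48 and 11.73 FPKM in ApoE-/- 1 to 5 and at 9.56, 14.45 and 13.16 FPKM in NPRC-/-ApoE-/- 1 to 3. Only ApoE-/- 2 and 3 were above every NPRC-/-ApoE-/- library, and the log2 fold change was -0.37 with a standard error of 0.34 (adjusted p = 0.64). Its assembled locus (chr17:26467560-26562128) also carries the name AC122252, so part of its reads may belong to that transcript. Zfp36 (chr7:28376784-28380253) was at 10.9, 19.58, 24.99, 14.06 and 8.89 FPKM in ApoE-/- 1 to 5 and at 8.42, 11.29 and 12.86 FPKM in NPRC-/-ApoE-/- 1 to 3. Its groups overlapped from 8.89 to 12.86 FPKM, and the log2 fold change was -0.52 with a standard error of 0.37 (adjusted p = 0.54).

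By mean over the 8 libraries, Junb had the highest value of the members (43.39 FPKM), followed by Fos (36.62), Egr1 (30.37), Jun (28.73), Ier2 (19.7), Dusp1 (14.73), Zfp36 (13.87), Nr4a1 (9.32), Fosb (6.28) and Atf3 (4.32). Neighbours in this order overlapped between libraries. The lowest Junb value, 11.76 FPKM, was above the highest Atf3 value, 6.72 FPKM. The order does not follow the reads. Nr4a1 had 120739 reads over the 8 libraries and a transcript of 2553 bases, and Junb had 59023 reads and a transcript of 1809 bases. It therefore depends on the lengths used for the loci and does not rank abundance.

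The comparison by title asks whether aortas without NPRC had less or more of these messages. All 10 log2 fold changes were negative, where 50.9% of the loci tested were negative, and their median was -1.26 against -0.006 over all loci. No member had an adjusted p under 0.05 in edgeR, and 0.0% of all loci did. Without adjustment, 7 of 10 (all but Egr1, Dusp1 and Zfp36) had p under 0.05 with a lower mean, against 7.13% of all loci. With a fold below 0.5 in addition, the criterion of the study, there were 5 (Fos, Fosb, Junb, Ier2 and Nr4a1), against 2.39%. Groups that did not overlap, with NPRC-/-ApoE-/- lower, were found for 2 (Jun and Atf3), against 3.69%. DESeq2 gave an adjusted p under 0.05 to Jun (0.017) and Fos (0.037), and to 1.8% of all loci in that direction. The members were chosen with earlier results of these data known, and they varied together between libraries. These counts therefore describe the list and are no test of it.

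The count of 5 changed when single libraries of either title were left out. It was 1 without ApoE-/- 2, 1 without ApoE-/- 3 and 2 without ApoE-/- 4. Without NPRC-/-ApoE-/- 1 or NPRC-/-ApoE-/- 2 it was 0, and without NPRC-/-ApoE-/- 3 it was 1. The share of all loci that met the criterion in these fits is not given here. A loss of precision at all loci therefore cannot be told apart from a change in the members. The median log2 fold change of the members stayed between -1.47 and -0.93 over the omission of each library in turn. Jun kept an unadjusted p under 0.05 in 20 of 20 alternative fits by title, with log2 fold changes of -0.77 to -0.60, and Fos in 17 of 20, with -2.42 to -1.50. Atf3 did so in 18 of 19 fits. Of 20 fits each, Fosb, Junb and Nr4a1 did so in 12, Ier2 in 11, Egr1 in 5, Zfp36 in 1 and Dusp1 in 0.

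Grouped by genotype entry, the difference was smaller and no member passed any of the tests. Here 9 of 10 log2 fold changes were negative, with a median of -0.57, and 0 members had p under 0.05, against 0.697% of all loci with a lower mean. The criterion of fold and p was met by 0 members and by 0.463% of all loci in either direction, and adjusted p values under 0.05 by 0 members and 0.0% of loci. The log2 fold change of Fos was -0.98 with a standard error of 0.89, and that of Jun was -0.06 with a standard error of 0.29. Fosb had the opposite sign, 0.14 with a standard error of 0.76. The difference between both groupings was not tested. Restricted to the 4 libraries without a conflict, ApoE-/- 1 to 3 against NPRC-/-ApoE-/- 3, the comparison gave log2 fold changes of -2.30 for Fos and -0.72 for Jun, with no replicate of the latter genotype and no test.

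**Figure D2:**
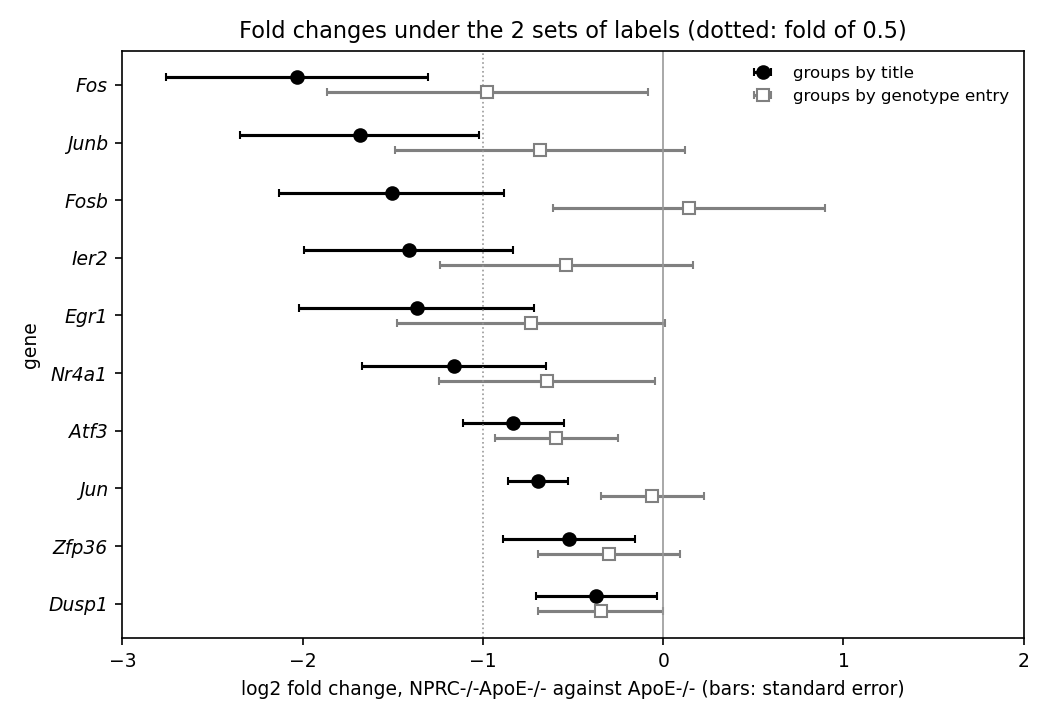
Log2 fold change of each immediate early gene, NPRC-/-ApoE-/- against ApoE-/-, with libraries grouped by title (black circles) and by genotype entry (grey squares). Bars are standard errors of the edgeR fit, the solid line marks no difference and the dotted line a fold of 0.5. All 10 circles lie below 0, from -2.03 for Fos to -0.37 for Dusp1, and the square of Fosb lies above 0.

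The members varied together from library to library. For each gene the level was expressed as log2 CPM (log2 of the counts scaled to library size) minus the mean of that gene over the 8 libraries, and the mean of this value over the 10 members was -0.44, 1.07, 1.30, 0.52 and -0.67 in ApoE-/- 1 to 5 and -0.72, -0.67 and -0.39 in NPRC-/-ApoE-/- 1 to 3. Thus ApoE-/- 2, 3 and 4 were above the average and the other 5 libraries below it, and the signs were the same with library totals alone and with median-ratio size factors. On the log2 CPM scale ApoE-/- 3 was the highest library for 8 members and ApoE-/- 2 for the other 2. The members took 0.0699 to 0.2202% of all counts in the ApoE-/- libraries and 0.0599 to 0.0778% in the NPRC-/-ApoE-/- libraries.

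Libraries 2, 3 and 4 of ApoE-/- were the 3 highest for 8 of 10 members, all but Atf3 and Dusp1. The same held for 12.37% of all loci tested, and the pattern was noticed after the values were seen. Over the 8 libraries, the 45 pairs of members had Pearson correlations of log2 CPM from 0.53 (Atf3 with Dusp1) to 0.989 (Junb with Ier2), with a median of 0.856. These correlations describe 8 libraries that all members share, including the difference between titles.

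**Figure D3:**
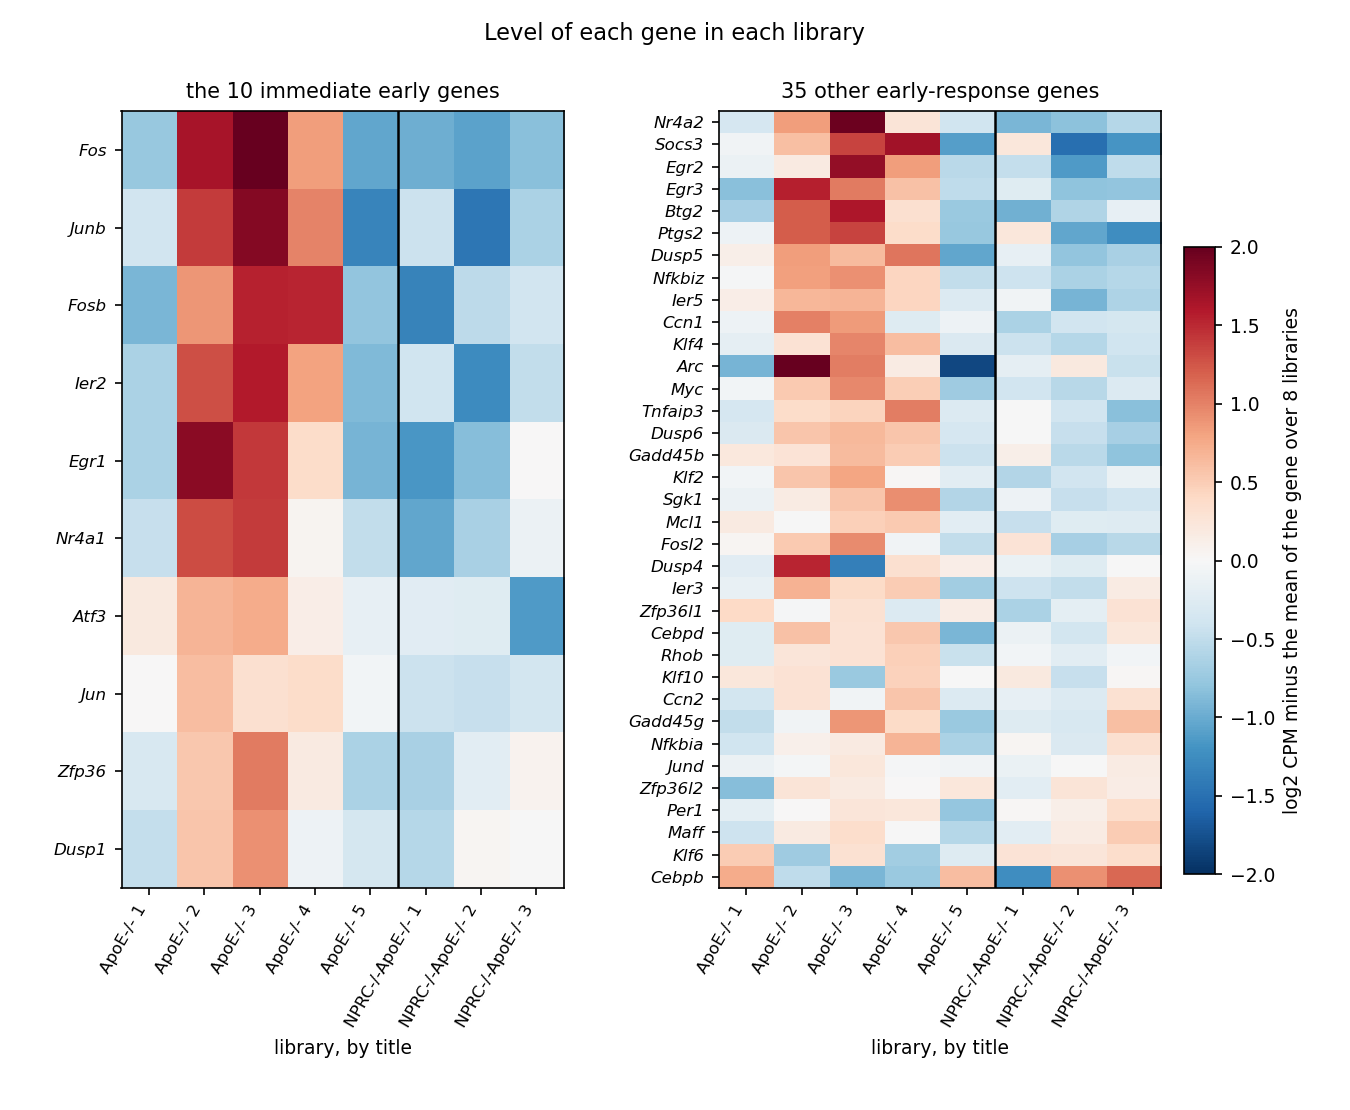
Log2 CPM of each gene minus its mean over the 8 libraries (color, from -2 in blue to 2 in red), for the 10 immediate early genes on the left and 35 other early-response genes on the right. Columns are libraries by title, with a line between ApoE-/- and NPRC-/-ApoE-/-, and rows are ordered by the difference between titles. The columns of ApoE-/- 2, 3 and 4 are red for most rows, and those of ApoE-/- 1 and 5 resemble the NPRC-/-ApoE-/- columns.

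Most members also spread more between ApoE-/- libraries than between NPRC-/-ApoE-/- libraries. The median standard deviation of log2 CPM was 1.03 over the members in ApoE-/- (n = 5) and 0.47 in NPRC-/-ApoE-/- (n = 3), against 0.308 and 0.271 over all loci tested. It was larger in ApoE-/- for 9 of 10 members, all but Atf3, and for 56.3% of all loci. Fos had a standard deviation of 1.43 in ApoE-/-, larger than that of 98.2% of loci, and of 0.115 in NPRC-/-ApoE-/-, larger than that of 16.1%. Fosb, Junb, Egr1, Ier2 and Nr4a1 had ApoE-/- values above 95.2 to 97.8% of loci, whereas Jun, at 0.275, was above 43.2%. The standard deviations come from 5 and 3 libraries, and their difference was not tested.

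**Figure D4:**
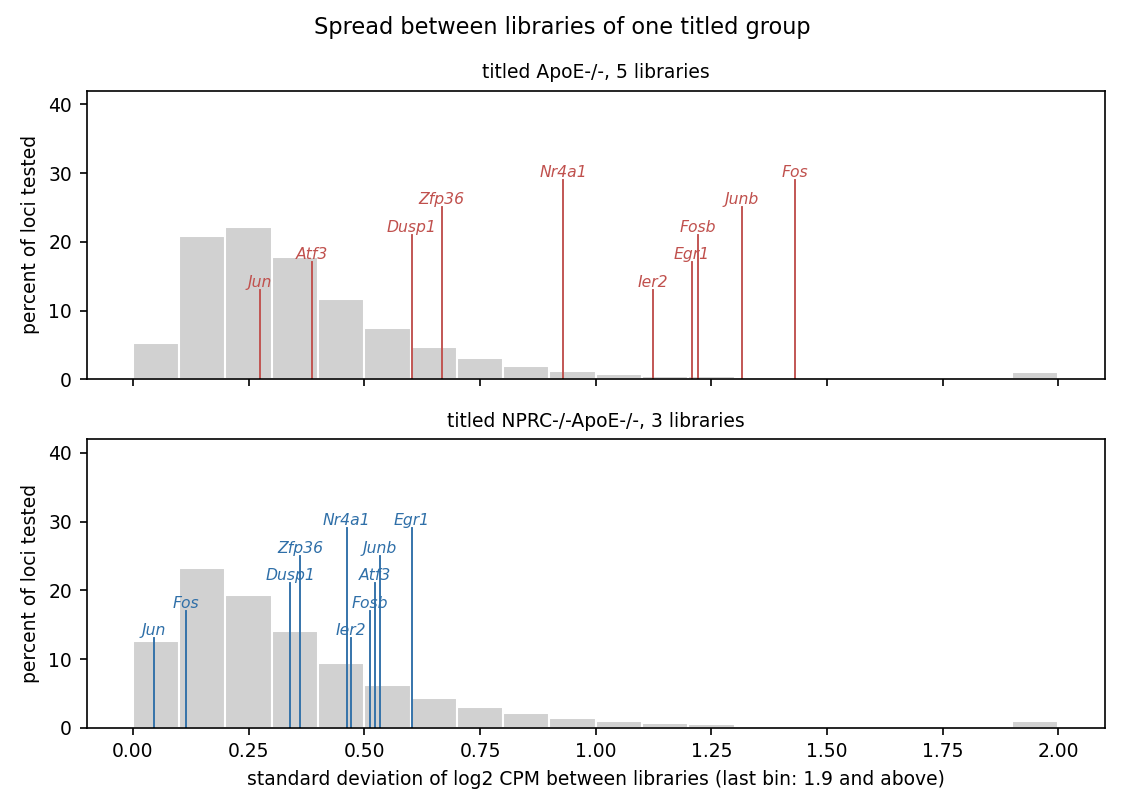
Standard deviation of log2 CPM between libraries of 1 title, for all 20506 loci tested (grey bars, percent of loci per bin of 0.1) and for each immediate early gene (vertical lines, whose heights only separate the names), in ApoE-/- above and in NPRC-/-ApoE-/- below. In ApoE-/- the lines of Ier2, Egr1, Fosb, Junb and Fos lie in the right tail beyond 1.1, and in NPRC-/-ApoE-/- all lines lie at 0.603 or less.

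Most other early-response genes also had lower means, with a smaller median difference than the members. Of 39 listed genes 35 were tested, 29 had a lower and 6 a higher mean in NPRC-/-ApoE-/-, and the median log2 fold change was -0.59. These were 82.9% lower, against 50.9% of all loci. Without adjustment 10 had p under 0.05, all lower (7.13% of all loci), 4 of them with a fold below 0.5 (2.39% of all loci), and 0 passed with adjustment (smallest adjusted p in edgeR 0.29, and 0 in DESeq2). By genotype entry 21 were lower and 14 higher, with 0 at p under 0.05 and a median of -0.08.

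The transcription factors and signaling genes with the smallest p in that list were Ier5, Nfkbiz, Klf4, Mcl1, Nr4a2 and Egr2. Nr4a2, the closest relative of Nr4a1, was at 1.91, 4.29, 8.5, 2.65 and 1.86 FPKM in ApoE-/- 1 to 5 and at 1.24, 1.31 and 1.47 FPKM in NPRC-/-ApoE-/- 1 to 3, with a log2 fold change of -1.52 (standard error 0.55). Egr2, a relative of Egr1, was at 1.62 to 7.03 FPKM in ApoE-/- and at 1.01 to 1.61 FPKM in NPRC-/-ApoE-/-, with a log2 fold change of -1.35 (standard error 0.51). Klf4, a vascular Krüppel-like factor, was at 8.04 to 17.02 FPKM against 6.25 to 7.04 FPKM, and its groups did not overlap (log2 fold change -0.82, standard error 0.29). Mcl1, an inhibitor of apoptosis with a short-lived message, was at 14.05 to 20.75 FPKM against 11.32 to 13.01 FPKM, also without overlap (log2 fold change -0.53, standard error 0.19). Ier5 had a log2 fold change of -0.86 (standard error 0.27) and Nfkbiz, an atypical IκB protein, of -0.96 (standard error 0.31), both with overlapping groups. Their adjusted p values in edgeR were 0.29 to 0.32. The groups of Nr4a2 did not overlap either. Of the 35 genes tested, 4 had groups that did not overlap on the log2 CPM scale with NPRC-/-ApoE-/- lower, against 3.69% of all loci.

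Jund, the JUN protein that is made constitutively in most tissues, was at 47.06 to 55.57 FPKM in all 8 libraries with a log2 fold change of 0.01 (standard error 0.13). Jund was named after its values were seen. Fosl1 reached at most 0.21 FPKM, Egr4 was listed at 0 in every library, and Nr4a3 (0.6 to 6.09 FPKM) and Dusp2 (0.19 to 2.2 FPKM) did not pass the filter.

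The receptors, kinases and transcription factors upstream of these genes mostly had smaller differences by title, in both directions. Of 29 listed genes 28 were tested, all but Camk4, of which 17 had a lower and 11 a higher mean in NPRC-/-ApoE-/-, with a median log2 fold change of -0.115. Without adjustment 6 had p under 0.05 with a lower mean (7.13% of all loci) and 1, Mef2d, with a higher mean (6.51% of all loci), and 0 passed with adjustment (smallest adjusted p in edgeR 0.28). By genotype entry 13 were lower and 15 higher, with a median of 0.01 and 1 at p under 0.05. Averaged like the members, the log2 CPM of these genes deviated from their means by -0.10 to 0.19 in the 8 libraries, against -0.72 to 1.30 for the members. Single genes among them varied more than this average, in which opposite deviations cancel. Rps6ka1, a kinase downstream of ERK, was at 1.31 to 6.5 FPKM (log2 fold change -1.11, standard error 0.44). It was the 1 gene of the list that met the criterion of fold and p, against 2.39% of all loci, and its groups overlapped.

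Among them, Prkacb, a catalytic subunit of protein kinase A, was at 9.02 to 10.58 FPKM in ApoE-/- and at 5.99 to 8.25 FPKM in NPRC-/-ApoE-/- (log2 fold change -0.47, standard error 0.14). Crem, a relative of CREB, was at 0.96 to 1.82 FPKM against 0.66 to 0.91 FPKM (-0.73, standard error 0.27). Elk1, a partner of SRF, was at 3.51 to 4.69 FPKM against 2.46 to 3.56 FPKM (-0.51, standard error 0.17). Egfr, the receptor of epidermal growth factor, and Mapk8, the kinase JNK1 that phosphorylates JUN, had log2 fold changes of -0.44 (standard error 0.15) and -0.29 (standard error 0.11). Mef2d, a MADS box factor, was at 6.1 to 7.23 FPKM against 7.12 to 9.08 FPKM (0.34, standard error 0.13). On the log2 CPM scale, the groups of Prkacb, Egfr, Mapk8 and Crem did not overlap, with NPRC-/-ApoE-/- lower. Those of Mef2d did not overlap on that scale either, with NPRC-/-ApoE-/- higher, although its FPKM ranges overlapped. The groups of Elk1 overlapped. Over the whole list 5 did not overlap on that scale with NPRC-/-ApoE-/- lower and 2 with it higher, against 3.69% and 3.72% of all loci.

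Messages that ZFP36 is known to destabilize had lower means in NPRC-/-ApoE-/-. Of 10 listed, 6 were tested, all with a lower mean in NPRC-/-ApoE-/-, 3 of them at p under 0.05 (7.13% of all loci) and 0 with adjustment in edgeR, whereas DESeq2 gave adjusted p values of 0.012 for Cxcl1 and 0.047 for Il6. Cxcl1, a neutrophil chemokine, was at 5.7, 9.46, 8.98, 7.01 and 2.77 FPKM in ApoE-/- 1 to 5 and at 2.51, 1.82 and 2.77 FPKM in NPRC-/-ApoE-/- 1 to 3 (log2 fold change -1.51, standard error 0.41). Il6 was at 0.21 to 8.18 FPKM against 0.06 to 0.67 FPKM (-3.48, standard error 1.15), and Il1b at 0.96 to 5.7 FPKM against 0.24 to 1.6 FPKM (-2.25, standard error 0.84). Both cytokines had their highest value in ApoE-/- 3. Lif had a log2 fold change of -1.58 (standard error 0.71), Ptgs2 of -1.15 (standard error 0.54) and Tnf of -0.77 (standard error 0.48). By genotype entry 0 of the 6 had p under 0.05, the median went from -1.54 to -0.61, and the log2 fold changes of Cxcl1 and Il6 were -0.41 (standard error 0.61) and -1.399 (standard error 1.395). Il10, Ccl2, Cxcl2 and Csf2 did not pass the filter. Il6 and Lif were below 1 FPKM in every NPRC-/-ApoE-/- library and passed the filter through ApoE-/- libraries alone. Among the NPRC-/-ApoE-/- libraries, Il1b reached 1 FPKM only in NPRC-/-ApoE-/- 1. For these genes the filter itself favored a lower mean in NPRC-/-ApoE-/-, so the counts above are not independent of it.

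Heat shock genes, which are induced through a different factor, HSF1, showed no common direction by title. Of 6 loci tested 2 had a lower and 4 a higher mean, with a median log2 fold change of 0.04, and 0 had p under 0.05 (unadjusted) or an adjusted p under 0.05 in edgeR or DESeq2, by title or by genotype entry. Hspa1a and Hspa1b, nearly identical genes that share 1 locus here, were at 13.54, 23.53, 5.83, 20.2 and 4.6 FPKM in ApoE-/- 1 to 5 and at 8.21, 7.14 and 5.29 FPKM in NPRC-/-ApoE-/- 1 to 3 (-0.96, standard error 0.53). This locus was highest in ApoE-/- 2 and 4, where most members were also high. ApoE-/- 3, where 5 members had their highest FPKM, was among the lowest here. Dnajb1 was highest in ApoE-/- 2 at 25.17 FPKM, followed by ApoE-/- 4 at 11.15 FPKM, and was at 5.92 to 9.91 FPKM elsewhere (-0.54, standard error 0.45). Hspb1 was at 37.09 to 125.47 FPKM over all libraries (0.58, standard error 0.36), and Hsph1, Hsp90aa1 and Hspa8 had log2 fold changes of 0.23, 0.05 and 0.03.

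The named loci whose log2 CPM over the 8 libraries was most like the mean of the members were Gm18588 (r = 0.989), Agtrap (0.986), Btg2 (0.981), Rtl6 (0.978), Il2rb (0.976), Ifrd1 with Mir1938 (0.974), Spry2 (0.972), Zwint (0.972), Sik1 (0.971) and Fam107b (0.968). They were the 10 highest of all loci that carry a name, over 8 libraries, so correlations of this size are a consequence of the ranking. Btg2, an antiproliferative early-response gene, was at 13.33 to 73.78 FPKM with a log2 fold change of -1.19 (standard error 0.56). Spry2, a feedback inhibitor of receptor tyrosine kinase signaling, was at 4.72 to 10.73 FPKM (-0.62, standard error 0.26), and Sik1, a kinase induced by cAMP, at 4.89 to 14.79 FPKM (-0.78, standard error 0.37). Agtrap, an angiotensin receptor binding protein, had a narrower range of 3.75 to 5.3 FPKM (-0.25, standard error 0.16).

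Markers of several cell types also moved between libraries, and in bulk tissue fewer cells of a type and less RNA per cell cannot be told apart. The summed FPKM of 6 macrophage markers was 797.42, 1156.5, 1664.83, 1780.99 and 588.01 in ApoE-/- 1 to 5 and 932.19, 364.5 and 283.67 in NPRC-/-ApoE-/- 1 to 3. That of 6 fibroblast markers was 773.77, 942.71, 1481.38, 1427.27 and 562.46 in ApoE-/- 1 to 5 and 787.16, 320.74 and 500.02 in NPRC-/-ApoE-/- 1 to 3. Both sums were thus highest in ApoE-/- 2, 3 and 4, the libraries where most members were high, and their part in the differences was not tested. All 6 macrophage markers and all 6 fibroblast markers had a lower mean in NPRC-/-ApoE-/-, with 3 and 1 at p under 0.05 (7.13% of all loci), and none was at 0 in a library. By genotype entry 0 of either list had p under 0.05, the median log2 fold change of the macrophage markers was -0.16 against -0.97 by title, and 4 fibroblast markers were lower and 2 higher.

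The summed FPKM of 6 skeletal muscle markers was low in the same libraries, at 6.5, 1.03, 0.9, 0.79 and 9.43 in ApoE-/- 1 to 5 and at 7.76, 7.78 and 5.24 in NPRC-/-ApoE-/- 1 to 3. Of these markers Myh1 and Tnnt3 were under 1 FPKM in every library. The 6 smooth muscle markers all had a higher mean in NPRC-/-ApoE-/-, 6 of 6 at p under 0.05 (6.51% of all loci), with summed FPKM of 1294.7 to 1741.25 in ApoE-/- and 1673.08 to 2879.63 in NPRC-/-ApoE-/-. By genotype entry 0 of the 6 had p under 0.05, with a median log2 fold change of 0.238 against 0.635 by title. Endothelial sums were 77.66 to 87.39 FPKM in ApoE-/- and 77.54 to 83.34 FPKM in NPRC-/-ApoE-/-, with 3 markers lower and 3 higher, 1 of them at p under 0.05 (higher). The 6 markers listed for T and B cells summed to 6.82 to 19.01 FPKM in ApoE-/- and 2.38 to 7.23 FPKM in NPRC-/-ApoE-/-. They include Ptprc, a gene of leukocytes in general, so the sum is not specific to lymphocytes. Of the 6, 1 passed the filter, and the B cell marker Ms4a1 was at 0 in a library. For neutrophil markers the sums were 3.33 to 13.29 FPKM and 2.52 to 12.05 FPKM, with Ly6g and Mpo under 1 FPKM everywhere. Adipocyte sums were 124 to 616.16 FPKM and 310.83 to 552.6 FPKM, Schwann cell sums 27.23 to 31.6 FPKM and 21.46 to 24.2 FPKM, and sums of 4 erythroid loci 173.2 to 1802.48 FPKM and 111.77 to 562.42 FPKM. By title all 5 Schwann cell markers tested were lower, 3 at p under 0.05 (7.13% of all loci). By genotype entry 1 was lower and 4 higher, with 0 at p under 0.05. DESeq2 by title gave an adjusted p under 0.05 to 2 Schwann cell, 2 macrophage, 2 smooth muscle and 1 T and B cell marker, and to 644 of the 20506 loci tested. A locus that includes Rn7s1, a non-coding RNA of the signal recognition particle, took 4.621 and 4.192% of counts in ApoE-/- 3 and 4, 1.852% in ApoE-/- 2 and 1.324 to 3.453% in the other libraries.

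Further rows of the table carried the symbols of 4 members and were not used. The second Fos row, downstream of the gene at chr12:85477768-85480705, was at 0.2, 0.57, 2.39, 2.85 and 0.25 FPKM in ApoE-/- 1 to 5 and at 0.15 to 0.17 FPKM in NPRC-/-ApoE-/-. The second Junb row, at chr8:84974484-84976542, was at 1.09, 2.32, 2.36, 2.35 and 0.58 FPKM in ApoE-/- 1 to 5 and at 1, 0.19 and 0.3 FPKM in NPRC-/-ApoE-/- 1 to 3. Both rows were higher in ApoE-/- 3 and 4 than in ApoE-/- 1 and 5, at far lower levels than the genes themselves. Second rows of Egr1 and Dusp1 lay within their gene but on the opposite strand, were below 2 FPKM and were at 0 in several libraries. With all rows of a symbol summed, those on the opposite strand included, the number of members that met the criterion of fold and p was again 5.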

How the data were processed

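RNA-seq of whole aortas was analysed in 8 libraries grouped by title, with genotype entry as an alternative. The authors extracted RNA with Trizol, made stranded poly(A) libraries, trimmed reads with cutadapt 1.9, mapped them with HISAT2 to GRCm38 and assembled loci with StringTie. They deposited raw read counts and FPKM values per locus. Whether counting used strand is not given in the sources used here. The table had 0 columns without a sample. After the filter on FPKM (1 or more, in 3 or more libraries), counts of 20506 loci were tested in edgeR 4.0.16 under R 4.3.3 (TMM, quasi-likelihood, Benjamini-Hochberg). Log2 CPM used a prior count of 2 and was the scale on which groups were counted as not overlapping. Exact permutation tests used 56 arrangements. The study's criterion was a fold over 2 or under 0.5 with unadjusted p under 0.05. Alternatives were DESeq2 1.42.0, limma 3.58.1 on log2(FPKM + 1) and log2(FPKM + 0.1), other size factors and filters, robust estimation, a replicate block and omission of each library. Scripts were tested on simulated data. Depth was 62969165 to 86693276 counts per library, and the number of libraries limits the precision. Members and lists were chosen with earlier results of these data known. All members are named, with up to 6 genes of each other list by smallest p and the 10 named loci most correlated with the members.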

Additional observations from a re-analysis of the deposited data

How the results depend on the processing

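The median log2 fold change of the members by title was between -1.52 and -0.57 in 22 alternatives, and 218 of 219 values of single members were negative. All but 1 of these alternatives kept the grouping by title, so they refit largely the same comparison. The exception was Fosb at 0.14 by genotype entry. Members that met the criterion of fold and p numbered 5, and were 1 with limma on log2(FPKM + 0.1), 1 with limma on log2(FPKM + 1), 0 by genotype entry and 0 to 6 over omissions of a library. Members with an adjusted p under 0.05 numbered 0 in every fit except DESeq2, with 2. By genotype entry 0 members met either criterion in 17 alternatives, and the median was between -0.87 and -0.13. Of the other early-response genes, 4 met the criterion of fold and p, and 2 with limma on log2(FPKM + 0.1), 0 with limma on log2(FPKM + 1), 0 with a mean of at least 5 FPKM (fewer genes tested), 7 with no filter on low values, 0 by genotype entry and 0 to 8 over omissions (7, 2, 0, 2 and 8 without ApoE-/- 1, 2, 3, 4 and 5, and 0 and 1 without NPRC-/-ApoE-/- 2 and 3). Of the upstream genes 1 did, and 0 with limma on log2(FPKM + 1), with a mean of at least 5 FPKM, by genotype entry and without ApoE-/- 2, 3 or 4 or NPRC-/-ApoE-/- 2 or 3 (0 to 1 over omissions). Apart from genotype entry, the share of all loci that met the criterion in these alternatives is not given here. The cause of these shifts was not tested. By genotype entry Mcl1 was at 0.033, Mapk8 at 0.065, Hsph1 at -0.002 and Hspa8 at -0.048 (log2 fold change), each with the opposite sign to that by title. Over omissions of a library Hspa8 was between -0.063 and 0.178 and Hsp90aa1 between -0.04 and 0.142.

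Deviations of libraries with the same number in both titles correlated at -0.314, -0.113 and 0.007, and those with different numbers at -0.16 to 0.23. With 3 libraries per title, these values cannot decide whether the numbers pair the libraries. With the replicate number as a block in the 6 libraries numbered 1 to 3, 6 members, 7 other early-response genes and 0 upstream genes met the criterion of fold and p, and Hspa8 was at -0.012. Without the block the same 6 libraries gave 7 members and 10 other early-response genes, with Hspa8 at -0.043. The share of all loci that met the criterion in these fits of 6 libraries is not given here. Whether the higher counts were particular to these lists was not tested. The 5 and 3 libraries, and the conflict between title and genotype entry for 4 of them, limit every comparison.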
